A study of Mus musculus with 12 samples.

Results

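Antioxidant defence genes were examined in cultured mouse colon myofibroblasts, as a set of 42 genes that code for the regulators and enzymes of the response to oxidants. Members were taken by gene symbol: 38 of the 42 had a probe with that symbol, and 37 were detected well enough to be measured, out of 11060 genes measured on the same arrays. Gsr, Prdx5, Prdx6 and G6pdx had no probe named for them and were not analysed here, and the single probe of Pgd did not pass the detection filter. This rule used no measured difference, but the list itself was chosen with earlier results of these data known. Shares of members set beside those of all genes are therefore descriptive.

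Cells keep superoxide and hydrogen peroxide low through superoxide dismutases, catalase, peroxidases that draw on glutathione or thioredoxin, and enzymes that return the spent thiols with NADPH. Many of these genes are driven by the transcription factor NRF2, which KEAP1 holds at low level until oxidants or electrophiles modify it. Bacterial lipopolysaccharide (LPS) is sensed through TLR4, and in many cell types it raises Sod2 through NF-kB and Hmox1 through several factors.

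The cells were intestinal subepithelial myofibroblasts (ISEMFs), contractile stromal cells that lie under the gut epithelium, grown as lines from mouse colon. Lines WT5, WT7 and WT13 were wild type for the clustered microRNAs miR-143 and miR-145, and lines KO4, KO10 and KO15 were null for both. From each of the 6 lines came 1 untreated array and 1 array after 24 h with 1 ug/mL LPS, so the 12 Illumina bead arrays formed 4 groups of 3. All lines shared a medium with serum, insulin, transferrin and EGF. No label says that the lines came from separate animals, and p-values therefore reflect how far these lines differ, which may be technical in part. Probes of miR-143 and miR-145 were not analysed here, which left the genotype labels without a check on the targeted locus.

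Medians of the unnormalised signal ran from 115 to 136 over the arrays. Each array detected 19223 to 20249 probes, which is 42.5% to 44.7% of all probes. The number of arrays limits the precision. All untreated arrays shared the first part of their array code, and all LPS arrays shared a different one. That part was read as the slide, and the letter after it as the place on the slide. No label states either reading. The effects of LPS and of the slide cannot be told apart, and every change after LPS is also a change between slides. Genotype cannot be told apart from place on the slide either, since WT lines took places A, B and C and KO lines the rest. Of 14 myofibroblast markers 13 were detected on all 12 arrays, and their summed linear signal was 72219 to 82794 without LPS and 61442 to 68987 with it; the part of that difference in the LPS changes of the members was not tested. Leukocyte markers had 10 of 16 measured, 7 of them detected on all 12 arrays, while Ptprc, Itgam and Itgax were undetected on every array. Their summed signal was lowest in line KO4, at 1060 without and 978 with LPS, against 1793 to 4249 on the other 10 arrays. Of 13 epithelial markers 6 were measured, 5 of them (Krt8, Krt18, Krt19, Krt20 and Cldn7) detected on all 12 arrays, while Epcam, Vil1 and Cldn3 were detected on none. Their summed signal was 379 to 625 in WT and 377 to 428 in KO lines untreated, and 260 to 443 and 217 to 293 with LPS. Of 10 endothelial markers 7 were measured, 3 of them (Eng, Egfl7 and Esam) detected on all 12 arrays and Cdh5 on 3, while Pecam1, Tie1 and Vwf were detected on none. Their summed signal was 1454 to 1642 in WT and 1361 to 1577 in KO lines untreated, and 1218 to 1593 and 1278 to 1478 with LPS. Of 8 glial markers only Sox10 was measured, on all 12 arrays, with 28 to 93 in WT and 16 to 35 in KO lines untreated and 32 to 69 and 14 to 27 with LPS. S100b and Gfap were detected on none. The part of these markers in the member values was not tested. The LPS array of WT13 correlated least with the rest of its group. Results that rest on KO4 or WT13 are given with and without that line.

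More antioxidant genes were higher than lower after LPS in both genotypes. In the WT lines 13 of the 37 measured members rose and 2 fell at an adjusted p under 0.05, where 10.5% of all genes tested rose and 12.3% fell (22.8% in either direction). In the KO lines 8 of 37 rose and 2 fell, where 7.45% of all genes rose and 7.22% fell (14.7% in either direction). The tests were limma's moderated tests, fitted on all genes with Benjamini-Hochberg adjustment. Changes are differences of log2 intensity, in which 1 is a 2-fold change.

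The median change of the measured members was 0.16 in WT lines, beside -0.06 for all genes, and 0.22 in KO lines, beside -0.03. Hmox1, Mgst1, Slc7a11, Sod2, Gclm, Srxn1 and Prdx1 rose in both genotypes, which is 7 of the 13 called in WT and 7 of the 8 called in KO. Gpx1 was the 1 member that fell in both, and 20 members were called in neither. Line by line, 19 of the 37 members were higher after LPS in all 6 lines (51.4%, against 16% of all genes), and 6 were lower in all 6 (16.2%, against 22.3%). Groups did not overlap for 24 of 37 members in WT lines, where 39.9% of all genes did not, and for 21 of 37 in KO lines, where 37.1% did not. At an unadjusted p under 0.05 there were 20 members in each genotype, where 37.5% of all genes in WT and 28.4% in KO lines were so. The WT and KO values of LPS come from separate arrays, but both carry the same slide difference.

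**Figure D1:**
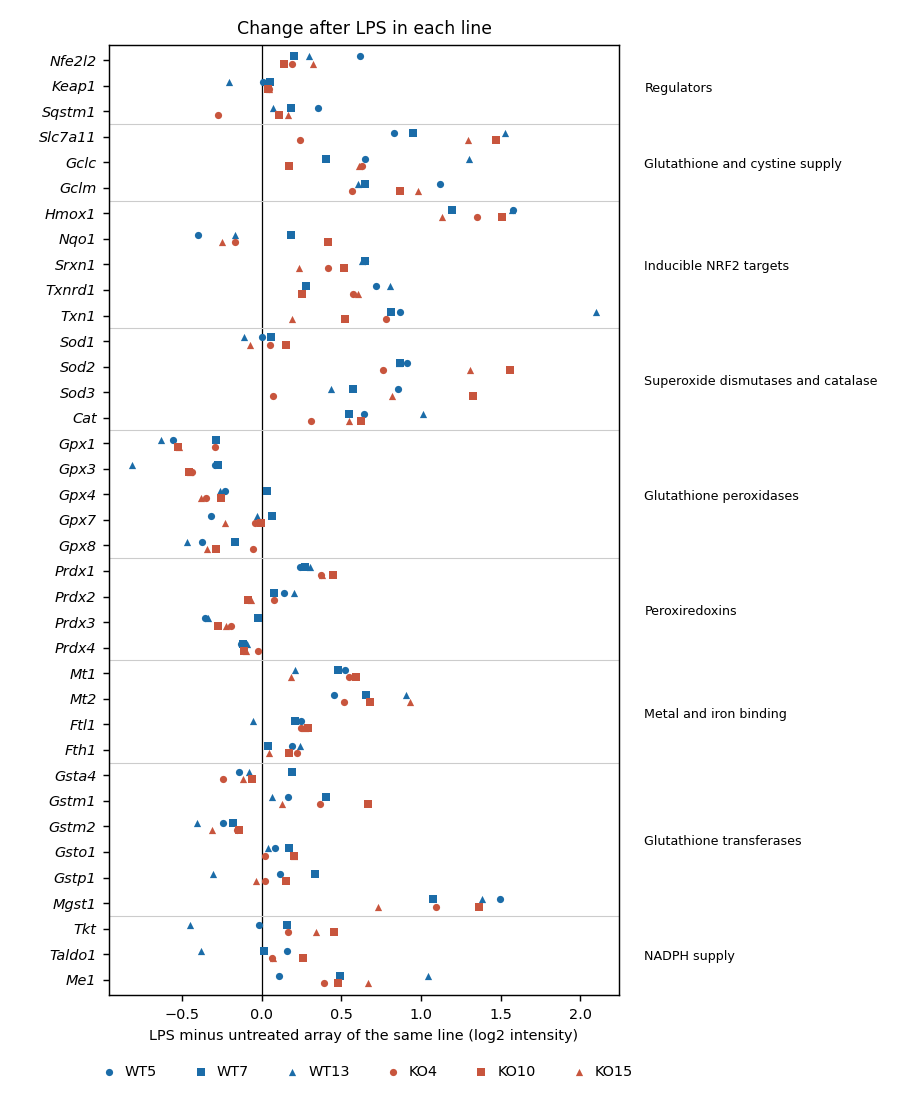
Change of each measured member after LPS, as the LPS array minus the untreated array of the same line on the log2 scale, ordered by role; blue marks the 3 WT lines and red the 3 KO lines. Points of Hmox1 lie between 1.13 and 1.58 in all 6 lines, points of Gpx1 lie between -0.63 and -0.28, and Nqo1 lies on both sides of 0.

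Nfe2l2, the gene of NRF2 itself, rose modestly in the WT lines. Its log2 intensity was 8.15, 8.33 and 8.40 in untreated WT5, WT7 and WT13 and 8.77, 8.54 and 8.69 with LPS, without overlap. The change was 0.37 (SE 0.10, limma adjusted p = 0.0214), or 1.29-fold, and the call was lost without WT13 (change 0.41, adjusted p = 0.0584). In KO4, KO10 and KO15 it read 8.21, 8.33 and 8.29 untreated and 8.40, 8.47 and 8.61 with LPS. These groups did not overlap either, but the change of 0.22 was not called (adjusted p = 0.188). Keap1, the adaptor that targets NRF2 for degradation, had changes of -0.05 in WT and 0.04 in KO lines and was called in neither. Sqstm1, an autophagy receptor that can displace NRF2 from KEAP1, had changes of 0.20 in WT and 0.00 in KO lines, not called. In KO4 alone its LPS array was below the untreated one, at -0.27.

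The promoters of the members were searched for the core of the antioxidant response element, the site that NRF2 and small MAF proteins bind, written TGACNNNGC, and for the AP-1 core, written TGANTCA. Windows were the 250 bases before each RefSeq transcript start of assembly GRCm38.p6, and both strands were read. Of the 42 members 36 had a window (all but Gclc, Gsr, Gsta4, Hmox1, Prdx6 and Sod3), and 8 of these 36 held the antioxidant response element core, where 11.5% of 27025 genes did. The AP-1 core was in 4 of the 36, where 7.82% of genes held it. The matches TGACTCAGC in Prdx1 and Mt2 hold both motifs, since the letters overlap. Among members called higher after LPS in WT or KO lines, 5 of the 12 with a window held the antioxidant core: Nfe2l2, Gclm, Txnrd1, Prdx1 and Mgst1. Sod1 and Mt2 were the 2 of 18 members called in neither genotype that held it, and 0 of the 3 members called lower did. G6pdx, which was not measured, also held it. A match is a string of letters and no evidence of binding, and these windows leave out enhancers.

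Windows of the 5 raised members with the antioxidant core are printed 5' to 3' on the strand of the gene, with motif letters in capitals, so that the sites can be set beside the changes reported for each gene. On the opposite strand the core reads GCNNNGTCA. Srxn1 is shown because it was raised and held 2 AP-1 cores but no antioxidant core in this window, and Gpx1 because it fell and held neither. Nfe2l2 lies at chr2:75704664-75704913, minus strand, with its match starting 240 bases before the transcript start. Gclm lies at chr3:122245307-122245556, plus strand, with its match 134 bases before the start. Txnrd1, for which the second of 3 listed starts is shown, lies at chr10:82858956-82859205, plus strand, with its match 92 bases before the start. Prdx1 lies at chr4:116685349-116685598, plus strand, with matches 237, 133 and 131 bases before the start. Mgst1, shown for the first of 2 listed starts, lies at chr6:138140277-138140526, plus strand, with its match 56 bases before the start. Srxn1 lies at chr2:152105274-152105523, plus strand, with AP-1 cores 102 and 45 bases before the start. Gpx1 lies at chr9:108338830-108339079, plus strand.
Nfe2l2: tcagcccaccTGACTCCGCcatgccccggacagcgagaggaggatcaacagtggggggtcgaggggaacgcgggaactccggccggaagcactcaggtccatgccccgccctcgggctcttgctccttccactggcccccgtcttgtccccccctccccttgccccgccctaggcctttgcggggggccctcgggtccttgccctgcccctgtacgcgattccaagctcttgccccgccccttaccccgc
Gclm: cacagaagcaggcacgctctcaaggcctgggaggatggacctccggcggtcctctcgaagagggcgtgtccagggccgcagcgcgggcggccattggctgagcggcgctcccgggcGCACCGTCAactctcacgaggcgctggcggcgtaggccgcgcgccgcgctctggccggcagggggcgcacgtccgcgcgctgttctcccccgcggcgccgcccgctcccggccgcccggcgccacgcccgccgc
Txnrd1: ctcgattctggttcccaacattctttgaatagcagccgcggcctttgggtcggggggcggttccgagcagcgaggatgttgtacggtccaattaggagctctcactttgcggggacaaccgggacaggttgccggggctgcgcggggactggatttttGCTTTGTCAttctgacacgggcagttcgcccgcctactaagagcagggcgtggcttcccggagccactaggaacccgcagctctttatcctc
Prdx1: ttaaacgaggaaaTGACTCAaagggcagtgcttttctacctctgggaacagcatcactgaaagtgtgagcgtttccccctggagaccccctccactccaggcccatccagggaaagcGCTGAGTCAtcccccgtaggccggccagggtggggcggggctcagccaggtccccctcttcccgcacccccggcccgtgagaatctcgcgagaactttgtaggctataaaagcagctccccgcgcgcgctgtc
Mgst1: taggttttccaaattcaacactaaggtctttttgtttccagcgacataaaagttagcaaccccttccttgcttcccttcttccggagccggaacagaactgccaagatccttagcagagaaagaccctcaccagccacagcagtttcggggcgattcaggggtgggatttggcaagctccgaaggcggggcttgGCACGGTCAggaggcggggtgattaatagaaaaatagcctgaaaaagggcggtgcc
Srxn1: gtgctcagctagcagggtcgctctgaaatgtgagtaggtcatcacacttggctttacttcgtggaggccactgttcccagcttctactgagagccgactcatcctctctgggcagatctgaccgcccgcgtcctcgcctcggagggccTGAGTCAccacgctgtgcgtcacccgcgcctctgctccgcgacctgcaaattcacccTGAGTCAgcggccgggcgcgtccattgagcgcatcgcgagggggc
Gpx1: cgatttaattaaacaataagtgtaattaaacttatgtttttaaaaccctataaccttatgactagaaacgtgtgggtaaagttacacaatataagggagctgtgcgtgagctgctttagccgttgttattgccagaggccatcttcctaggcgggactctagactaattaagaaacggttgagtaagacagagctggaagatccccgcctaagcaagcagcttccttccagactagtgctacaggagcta

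All 3 measured genes of glutathione and cystine supply rose in the WT lines, and 2 of the 3 rose in the KO lines. Gclm, the modifier subunit of the enzyme that makes the glutathione precursor gamma-glutamylcysteine, read 9.62, 9.66 and 9.93 in untreated WT5, WT7 and WT13 and 10.74, 10.31 and 10.54 with LPS. In KO4, KO10 and KO15 it read 9.59, 9.67 and 9.58 without and 10.16, 10.54 and 10.56 with LPS. Every LPS array lay above every untreated array. The rise was 1.73-fold in WT (log2 0.79, SE 0.14, limma adjusted p = 0.00226) and 1.75-fold in KO lines (log2 0.81, adjusted p = 0.00282). This gene has a match to the antioxidant core, as printed with its promoter.

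Slc7a11, the transport subunit of the cystine importer xCT, stood at 5.48, 5.79 and 5.70 in the untreated WT lines and at 6.31, 6.74 and 7.23 with LPS. The KO lines stood at 5.68, 5.55 and 5.36 untreated and at 5.92, 7.02 and 6.66 with LPS, where KO4 was far below KO10 and KO15. The change was 1.10 in WT (SE 0.26, limma adjusted p = 0.0107) and 1.00 in KO lines (adjusted p = 0.0239). KO4 by itself had a change of 0.24. A second Slc7a11 probe had changes of 0.37 in WT and 0.31 in KO lines, less than the probe used. Without line WT13 the WT change was 0.89 and was no longer called (adjusted p = 0.0935). Under 24 alternative settings the WT call was lost in 1 and the KO call in 5. Gclc, the catalytic partner of Gclm, was detected on no untreated WT array and on all 3 WT arrays with LPS, which makes it at least 1.51-fold higher (adjusted p = 0.0423). That call was lost under 11 of 23 alternative settings, among them without WT13 (adjusted p = 0.302). In the KO lines Gclc read 4.57, 4.89 and 5.32 untreated and 5.20, 5.06 and 5.93 with LPS, a change of 0.47 with overlapping groups that was not called.

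Hmox1 had the largest rise of the measured members in both genotypes. It codes for heme oxygenase, which breaks heme down to biliverdin, iron and carbon monoxide. Its level was 10.68, 10.84 and 10.73 in untreated WT5, WT7 and WT13 and 12.26, 12.03 and 12.31 with LPS. The KO lines had 10.20, 10.65 and 11.13 untreated and 11.55, 12.15 and 12.26 with LPS. No untreated array reached any LPS array, although the untreated KO lines spread more widely (SD 0.46, n = 3) than the untreated WT lines (SD 0.08, n = 3). The rise was 2.73-fold in WT (log2 1.45, SE 0.22, limma adjusted p = 0.000872) and 2.51-fold in KO lines (log2 1.33, adjusted p = 0.0021). It was called in both genotypes without WT13 and without KO4.

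Of the thioredoxin branch, Srxn1, Txn1 and Txnrd1 rose in the WT lines and Srxn1 in the KO lines. Srxn1, sulfiredoxin, which repairs over-oxidised peroxiredoxins, read 9.81, 9.82 and 9.96 in the untreated WT lines and 10.46, 10.47 and 10.59 with LPS. The KO lines read 9.65, 9.86 and 10.03 untreated and 10.06, 10.38 and 10.27 with LPS, and neither genotype's groups overlapped. The change was 0.64 in WT (limma adjusted p = 0.0026) and 0.39 in KO lines (adjusted p = 0.0426). Its other probes had changes of 0.78 and 0.48 in WT and of 0.56 and 0.24 in KO lines. The KO call was lost under 11 of 24 alternative settings, among them without KO4 (change 0.38, adjusted p = 0.0854).

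Txn1, thioredoxin, stood at 8.87, 8.87 and 8.57 in untreated WT5, WT7 and WT13 and at 9.74, 9.69 and 10.67 with LPS. WT13 had a change of 2.10, against 0.87 in WT5 and 0.81 in WT7. The mean change of 1.26 was called (SE 0.23, limma adjusted p = 0.0026), and without WT13 it was 0.84 and still called (adjusted p = 0.0116). The KO lines read 9.14, 8.98 and 9.30 untreated and 9.93, 9.51 and 9.49 with LPS, a change of 0.50 without overlap that was not called (adjusted p = 0.172). A second Txn1 probe, also detected on all 12 arrays, had changes of 0.14 in WT and 0.08 in KO lines, so the probes of this gene disagree in size. Txnrd1, the reductase that recharges thioredoxin with NADPH, had a change of 0.60 in WT lines (adjusted p = 0.0239), and that call was lost without WT13 (adjusted p = 0.124). In KO lines it had a change of 0.48, which was not called (adjusted p = 0.0791) but was with the line as a fixed block (adjusted p = 0.0308).

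Nqo1, a quinone reductase often used as a marker of NRF2 activity, did not follow the genes above. It read 7.19, 7.0 and 7.57 in untreated and 6.79, 7.18 and 7.40 in LPS-treated WT5, WT7 and WT13. The KO lines read 7.22, 6.51 and 7.16 untreated and 7.05, 6.93 and 6.91 with LPS. Groups overlapped in both genotypes, and the changes of -0.13 (95% interval -0.58 to 0.32) and 0.00 (-0.45 to 0.45) were not called.

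**Figure D2:**
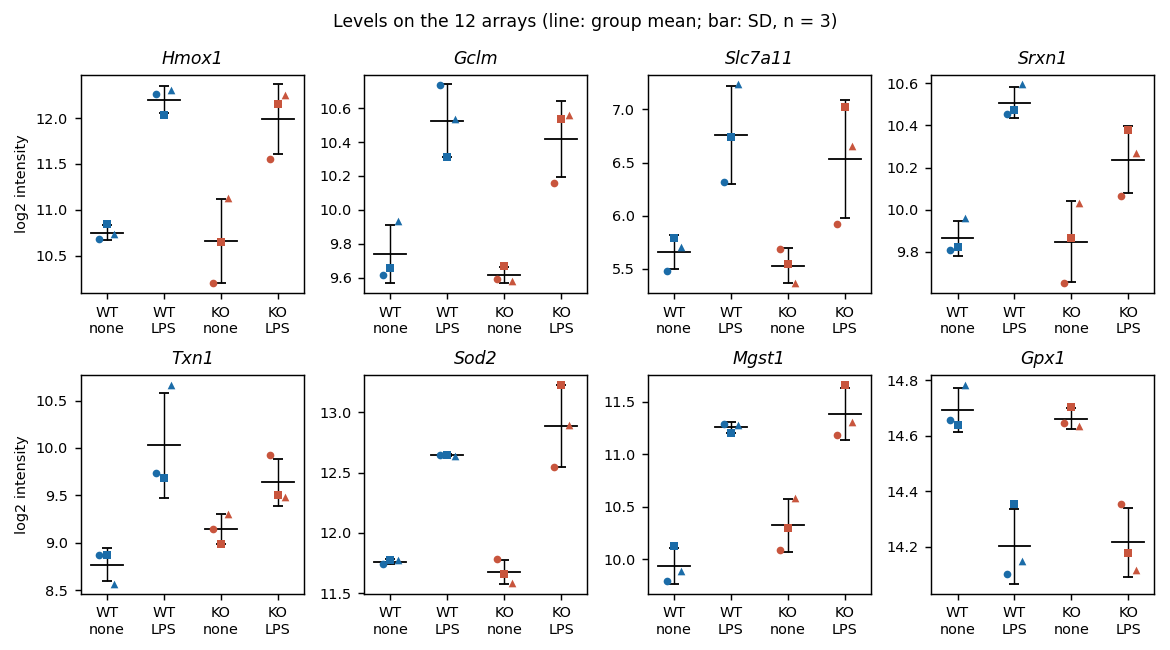
Log2 intensity of 8 members on the 12 arrays, with circles for WT5 or KO4, squares for WT7 or KO10 and triangles for WT13 or KO15; the line is the group mean and the bar the SD (n = 3), and each panel has its own axis. LPS groups lie above untreated groups in 7 panels and below them for Gpx1, and KO4 is the lowest LPS-treated KO line in Hmox1, Gclm, Slc7a11, Srxn1, Sod2 and Mgst1.

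Of the superoxide dismutases, the mitochondrial enzyme rose and the cytosolic enzyme was not called. Sod2, the mitochondrial manganese enzyme, read 11.74, 11.77 and 11.78 in untreated WT5, WT7 and WT13 and 12.65, 12.64 and 12.64 with LPS, so the WT lines lay very close together in each state. The KO lines read 11.78, 11.66 and 11.59 untreated and 12.54, 13.22 and 12.90 with LPS, where they spread over a wider range. The rise was 1.84-fold in WT (log2 0.88, SE 0.14, limma adjusted p = 0.00113) and 2.31-fold in KO lines (log2 1.21, adjusted p = 0.000222). Sod1, the cytosolic copper and zinc enzyme, had changes of -0.02 and 0.04, both not called. Sod3, the secreted form, had changes of 0.86, 0.57 and 0.44 in WT5, WT7 and WT13 and of 0.07, 1.33 and 0.82 in KO4, KO10 and KO15. All 6 lines were higher, but neither mean change was called (0.62, adjusted p = 0.246 and 0.74, adjusted p = 0.218). With the line as a fixed block both were (adjusted p = 0.0482 and 0.035). Sod3 was detected on 2 of the 3 untreated WT arrays, where its values lie near the lowest detected signal.

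Cat, catalase, which splits hydrogen peroxide in peroxisomes, had a change of 0.74 in the WT lines (SE 0.17, limma adjusted p = 0.00902), from 7.95, 7.75 and 7.98 to 8.59, 8.30 and 9.0 in WT5, WT7 and WT13. Without WT13 the change was 0.60 and just missed the threshold (adjusted p = 0.0511). In KO lines it had a change of 0.49 without overlap, not called (limma adjusted p = 0.0696). The KO change was called under 6 of 24 alternative settings. Among these were the line as a fixed block (adjusted p = 0.0194) and as a random one (adjusted p = 0.0319). A second Cat probe had changes of 0.24 in WT and 0.20 in KO lines.

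For the glutathione peroxidases the mean change of all 5 measured was negative in both genotypes and under each scaling tried, with medians of -0.34 in WT and -0.33 in KO lines, and 2 of the 5 fell in each. Gpx1, the main cytosolic selenoenzyme that reduces hydrogen peroxide with glutathione, read 14.66, 14.64 and 14.78 in untreated WT5, WT7 and WT13 and 14.10, 14.36 and 14.15 with LPS. KO4, KO10 and KO15 read 14.65, 14.70 and 14.63 untreated and 14.36, 14.18 and 14.11 with LPS. Every LPS array lay below every untreated array. Gpx1 fell by 0.49 in WT (SE 0.10, 1.41-fold lower, limma adjusted p = 0.00482) and fell by 0.45 in KO lines (SE 0.10, 1.36-fold lower, adjusted p = 0.011). Without WT13 its WT change was -0.42 (adjusted p = 0.0493).

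Gpx4, which reduces lipid hydroperoxides in membranes, had a change of -0.33 in KO lines, from 13.26, 13.28 and 13.31 in KO4, KO10 and KO15 to 12.91, 13.02 and 12.93 with LPS (limma adjusted p = 0.026). In WT lines it had a change of -0.15 with overlapping groups (adjusted p = 0.221). Its 3 probes disagreed: the other probes had changes of -0.57 and 0.00 in WT and of -0.57 and -0.02 in KO lines. The KO call was lost without KO4 (change -0.32, adjusted p = 0.133). Gpx8, a peroxidase of the endoplasmic reticulum, had changes of -0.34 in WT (adjusted p = 0.0442) and of -0.23 in KO lines (adjusted p = 0.198). The WT call for Gpx8 was lost under 13 of 24 alternative settings. Among these were leaving out WT13 (adjusted p = 0.193) and the mean of its probes (adjusted p = 0.331), since another probe had a change of 0.19. Gpx3, the secreted peroxidase, was lower after LPS in all 6 lines, with mean changes of -0.46 in WT and -0.45 in KO lines. It was not called (adjusted p = 0.072 and 0.107) but was with the line as a fixed block (adjusted p = 0.0203 and 0.0311). Gpx7, another reticulum peroxidase, had changes of -0.09 and -0.09, not called.

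Among the 4 measured peroxiredoxins, thiol peroxidases recharged by thioredoxin, only Prdx1 was called. Prdx1, a cytosolic form whose promoter held the overlapping motifs, read 13.77, 13.86 and 13.88 in untreated WT5, WT7 and WT13 and 14.01, 14.13 and 14.19 with LPS. The KO lines read 13.74, 13.84 and 13.84 untreated and 14.11, 14.29 and 14.22 with LPS, and neither genotype's groups overlapped. The change was 0.27 in WT (limma adjusted p = 0.0417) and 0.40 in KO lines (adjusted p = 0.0106). A second Prdx1 probe, detected on 8 arrays, had changes of 0.68 in WT and 0.66 in KO lines. The WT call was lost under 14 of 24 alternative settings, among them without WT13 (adjusted p = 0.133) and without KO4 (adjusted p = 0.0536). Prdx3, the mitochondrial form, was lower after LPS in all 6 lines, with mean changes of -0.24 and -0.23, and not called (adjusted p = 0.0869 and 0.131). Prdx2 had changes of 0.14 and -0.02 and Prdx4, a secretory pathway form, of -0.11 and -0.08, none called. The other Prdx2 probes had changes of 0.28 and 0.40 in WT lines. In KO lines they had 0.14 and 0.31, opposite in sign to the probe used.

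The 4 metal and iron binding members were higher after LPS on average in both genotypes, except Fth1 under 75th percentile scaling (-0.07 and -0.05), and none was called at the threshold. The metallothioneins Mt1 and Mt2 are small cysteine-rich proteins that bind zinc and copper. Mt2 had changes of 0.46, 0.66 and 0.91 in WT5, WT7 and WT13 and of 0.52, 0.68 and 0.93 in KO4, KO10 and KO15, and Mt1 of 0.52, 0.48 and 0.21 and 0.55, 0.59 and 0.19. All 12 of these within-line differences were positive, while the lines themselves stood far apart: untreated KO lines read 5.16, 5.83 and 5.87 for Mt2 and 13.31, 13.64 and 14.04 for Mt1. Without a block the mean changes of Mt2 had adjusted p = 0.088 in WT and 0.101 in KO lines, and with the line as a fixed block 0.00426 and 0.00401. For Mt1 the unblocked values were 0.0986 and 0.1, and the blocked ones 0.0293 and 0.0279. The ferritin chains, which store iron, had changes of 0.13 and 0.27 for Ftl1 and of 0.16 and 0.15 for Fth1. Of these, Ftl1 in KO lines was called with the line as a random block (adjusted p = 0.0391; 0.069 without).

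Mgst1 stood out among the 6 glutathione transferases, which conjugate glutathione to reactive compounds. It codes for a membrane-bound transferase that also acts as a peroxidase. Mgst1 read 9.80, 10.12 and 9.89 in untreated WT5, WT7 and WT13 and 11.29, 11.20 and 11.27 with LPS. The KO lines read 10.09, 10.30 and 10.58 untreated and 11.18, 11.66 and 11.31 with LPS. No untreated array reached any LPS array. The rise was 2.49-fold in WT (log2 1.32, SE 0.15, limma adjusted p = 0.000143) and 2.09-fold in KO lines (log2 1.06, adjusted p = 0.000804). A second probe gave 1.46 and 1.26.

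Gstm1 had changes of 0.39 in KO lines (limma adjusted p = 0.0427) and of 0.21 in WT lines, not called. The KO call was lost under 12 of 24 alternative settings, among them the line as a fixed block (adjusted p = 0.0581) and leaving out KO4 (adjusted p = 0.126). A second Gstm1 probe had a change of 0.07 in KO lines and of -0.18 in WT lines, the latter opposite in sign to the probe used. Gstm genes are close paralogues, so probes can share signal between them. Gstm2 had changes of -0.28 in WT and -0.20 in KO lines, lower in all 6 lines and not called. In WT lines it was called under 8 of 24 alternative settings, among them the line as a random block (limma adjusted p = 0.0327). Gsto1 had changes of 0.10 and 0.14 and Gsta4, which clears the lipid peroxidation product hydroxynonenal, of -0.01 and -0.14, none called. Gstp1 had changes of 0.05 and 0.04 on the probe used, while its other probes had changes of 0.30 and 0.70 in WT and of 0.45 and 0.43 in KO lines.

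Of the 3 measured NADPH suppliers, Me1, malic enzyme, had changes of 0.11, 0.49 and 1.04 in WT5, WT7 and WT13. Its mean change of 0.55 was called (limma adjusted p = 0.0301) but not without WT13 (0.30, adjusted p = 0.194). The KO change of 0.51 lay at the threshold (adjusted p = 0.0518, or 0.0309 with the line as a random block). Tkt and Taldo1, transketolase and transaldolase of the pentose phosphate pathway, had changes of -0.10 and -0.07 in WT and of 0.32 and 0.13 in KO lines, none called. In WT13 both were lower after LPS, at -0.45 and -0.38. The other Tkt probes had changes of -0.05 and -0.22 in KO lines, opposite in sign to the probe used.

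Single lines weighed on the counts. The LPS array of WT13 was the highest of its group for 9 of the 13 members raised in WT. Over the 37 measured members it was the highest for 14, where it was the highest for 35.8% of all genes. Its share among all genes raised in WT was not counted. Without both WT13 arrays 6 members rose in WT lines (Hmox1, Mgst1, Txn1, Sod2, Gclm and Srxn1) and 1 fell (Gpx1), where 5.21% of all genes rose and 4.71% fell. In KO lines, whose arrays were untouched, 13 rose, where 8.99% of all genes did. The LPS array of KO4 was the lowest of its group for all 8 members raised in KO. Over the 37 measured members it was the lowest for 21, where it was the lowest for 36.1% of all genes. Its share among all genes raised in KO was not counted. Without both KO4 arrays 15 members rose in WT and 8 in KO lines, where 10.2% and 4.67% of all genes rose. KO4 also had the lowest leukocyte marker signal, given above, and the part of this in the member values was not tested. Adgre1 and Cd14, both on the leukocyte list, rose after LPS (by log2 2.12 and 1.62 in WT and 1.96 and 1.43 in KO lines), Cd3e fell, and the part of these in the LPS changes was not tested.

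No member differed by genotype at the threshold. In KO against WT without LPS 0 of 37 members were called, where 0.181% of all genes were (0.118% higher and 0.0633% lower). With LPS 0 of 37 were called, where 0.325% of all genes were (0.226% higher and 0.0995% lower). The lowest limma adjusted p of a member was 0.412 without and 0.331 with LPS, and 1 and 4 members had an unadjusted p under 0.05, where 9.11% and 10.8% of all genes did. Over the mean of each line's arrays 0 of 37 were called, where 0.127% of all genes were (0.0633% in each direction), with 2 members at an unadjusted p under 0.05, where 10.3% of all genes were so. An exact permutation test of 3 lines against 3 cannot go below 0.1. The 95% intervals of the genotype difference lay within 2-fold in either direction for 36 of the 37 members in each of these comparisons. In single conditions the median distance from value to bound was 0.27 on the log2 scale. Differences inside these intervals remain compatible with the data. Groups did not overlap for 6 of 37 members without LPS, where 18.7% of all genes were so, for 3 of 37 with LPS, where 13.2% were, and for 5 of 37 over line means, where 16.1% were. The endothelial marker Emcn was lower in KO lines without and with LPS (-0.80 and -0.74, adjusted p = 0.035 and 0.0447), and its part in the member values was not tested.

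**Figure D3:**
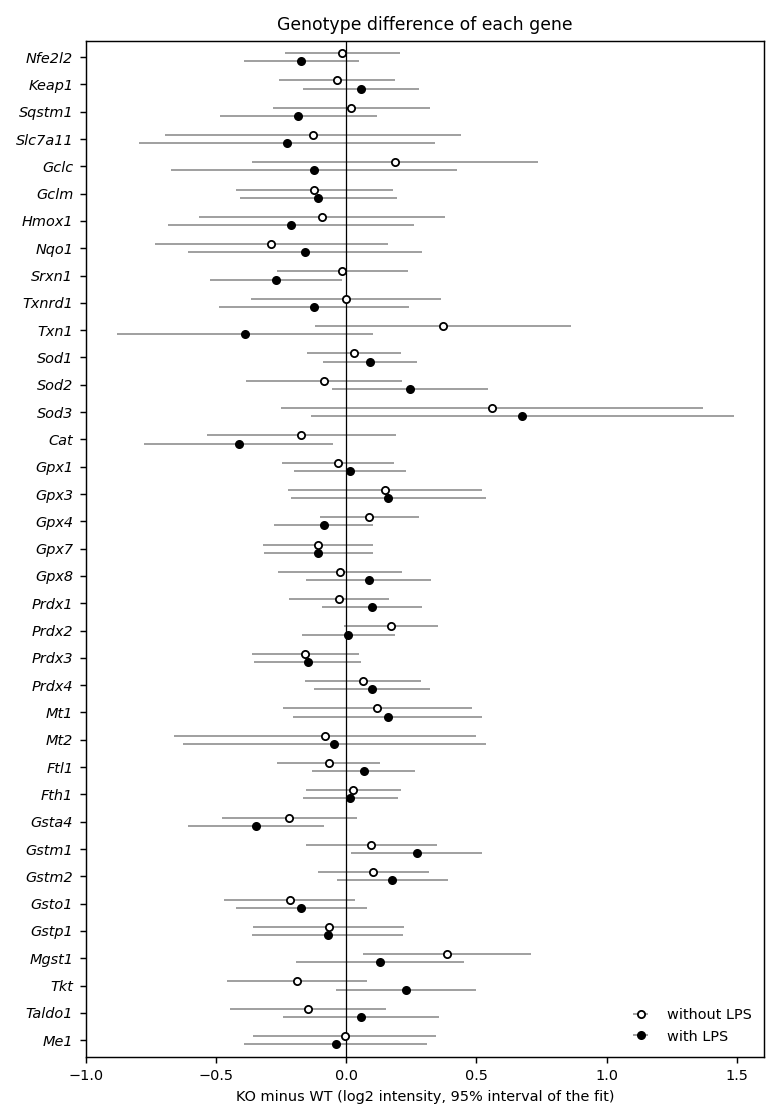
Difference of each measured member between genotypes, KO minus WT on the log2 scale, without LPS (open) and with LPS (filled), for 3 lines against 3. Bars are 95% intervals from the fit of 4 group means to all 12 arrays. That fit shares a spread over the groups and does not pair the arrays of a line. Most points lie within 0.5 of 0, Sod3 has the highest values and the widest bars, and no member passed the adjusted threshold.

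The exception to the 2-fold bound was Sod3. It read 4.95, 5.09 and 4.87 in untreated WT5, WT7 and WT13, while untreated KO4, KO10 and KO15 read 5.07, 5.57 and 5.94. Only 2 of the 3 untreated WT arrays detected it, and these values lie near the lowest detected signal (4.83 to 4.93 over the arrays). With LPS the WT lines read 5.80, 5.66 and 5.31 and the KO lines 5.14, 6.90 and 6.76. KO10 and KO15 lay above all WT lines in both states, and KO4 lay among or below them. The difference was 0.56 without LPS (95% interval -0.25 to 1.37, limma adjusted p = 0.751) and 0.68 with it (-0.13 to 1.49, adjusted p = 0.542). Without KO4, a choice made after the values were seen, it was 1.24 with LPS (adjusted p = 0.0141) and 1.02 over line means (adjusted p = 0.0253). The difference thus rests on KO10 and KO15.

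Gsta4 was lower in every KO line than in every WT line in both states, reading 6.41, 6.54 and 6.50 in untreated WT and 6.25, 6.19 and 6.36 in untreated KO lines, and 6.27, 6.73 and 6.42 and 6.0, 6.13 and 6.24 with LPS. The difference was -0.22 without LPS and -0.35 with it (-0.61 to -0.09), and -0.28 over line means, none past the adjusted threshold (adjusted p = 0.649, 0.331 and 0.367). Mgst1 was 0.39 higher in untreated KO lines with overlapping groups (adjusted p = 0.412). With LPS, Cat was -0.41 and Srxn1 -0.27 relative to WT, and Gstm1 0.27, none called (adjusted p = 0.409, 0.427 and 0.427). Nfe2l2 and Keap1 differed by -0.02 and -0.04 without LPS and by -0.17 and 0.05 with it.

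Whether the LPS change itself depended on genotype was tested as the difference of both changes. The values here come from the fit of 4 group means, which does not pair the arrays of a line. With the line as a fixed block 0 of all genes were called as well. None of the 37 members was called and 0% of all genes were, with a lowest member adjusted p of 0.949. At an unadjusted p under 0.05 there were 2 members, Tkt (0.42) and Txn1 (-0.76), where 3.54% of all genes were so. Changes of the lines did not overlap between genotypes for 4 of 37 members, where 12.3% of all genes were so. Intervals lay within 2-fold for 34 of 37 members, with a median distance from value to bound of 0.38. Without WT13 the values were 0.25 for Tkt and -0.34 for Txn1. Both other Tkt probes had the opposite sign (-0.22 and -0.01), and the other Txn1 probe had -0.07. A member called after LPS in one genotype and not in the other, such as Txn1, Cat or Gclc, is therefore not shown to respond differently. For Hmox1, Mgst1 and Sod2 the difference of changes, KO minus WT, was -0.12 (-0.79 to 0.55), -0.26 (-0.71 to 0.20) and 0.33 (-0.09 to 0.75).

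Genes next to the members in the same pathways were counted in 8 further lists, to be read against the 22.8% of all genes called in either direction in WT lines and the 14.7% in KO lines. Of 12 measured NRF2 partners and control genes, 2 rose in WT and 1 in KO lines and none fell (16.7% and 8.33% called, below those shares of all genes). Maff, a small MAF partner of NRF2, had changes of 0.89 in WT (limma adjusted p = 0.00339) and 0.76 in KO lines, and Mafg one of 0.44 in WT. Of 16 other detoxification genes linked to NRF2, 5 rose and 2 fell in WT and 2 rose and 1 fell in KO lines (43.8% and 18.8% called). The exporter gene Abcc4 had changes of 0.96 and 0.66, the quinone reductase gene Nqo2 of 0.53 and 0.56, and the epoxide hydrolase gene Ephx1 of -0.55 and -0.44. Akr1c18, an aldo-keto reductase, rose by 1.19 in WT lines.

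Of 28 other glutathione genes, 5 rose and 5 fell in WT and 5 rose and 3 fell in KO lines (35.7% and 28.6% called). Glrx, glutaredoxin, rose by 1.97 in WT and 1.81 in KO lines, Esd by 1.21 and 1.02, and Glrx3 by 1.08 and 0.76, while Mgst3 had changes of -0.82 and -0.78. Thus Mgst1 rose while Mgst3 of the same family fell. Of 20 other thioredoxin and sulfoxide reduction genes, 3 rose and 8 fell in WT and 2 rose and 3 fell in KO lines (55% and 25% called). Among those, nucleoredoxin (Nxn) had changes of -0.94 and -0.63, the methionine sulfoxide reductase gene Msrb3 of -0.93 and -0.68, and Sesn1 of -0.85 and -0.59. Pon3, a paraoxonase gene counted on this list though not itself a thioredoxin or sulfoxide reduction gene, rose by 0.91 and 0.79.

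Of 22 heme and iron genes, 7 rose and 1 fell in each genotype (36.4% called). Lcn2, which binds bacterial iron carriers, rose by 5.97 and 5.82, the ferroxidase gene Cp by 3.65 and 3.30, and the iron importer gene Slc11a2 by 1.37 and 1.35. Slc40a1, the iron exporter ferroportin, had changes of -1.02 and -1.31. Hp, haptoglobin, was not detected on the untreated arrays of either genotype, and with LPS was at least 2.03-fold higher in KO lines (limma adjusted p = 0.0436) and at least 1.07-fold in WT lines, not called (adjusted p = 0.475). Of 12 oxidant producing enzymes, 1 rose and 1 fell in WT and 2 rose in KO lines (16.7% called in each). Xdh, xanthine dehydrogenase, rose by 1.03 and 1.23, Rac1 fell in WT lines (-0.49), and Nos2, the inducible nitric oxide synthase, was at least 1.50-fold higher with LPS in KO lines (adjusted p = 0.0282) and at least 1.14-fold in WT lines, not called (adjusted p = 0.223). The difference of changes was called for neither Hp nor Nos2. Hp, Nos2, Steap4 and Tigar of these lists were detected on no untreated array, so their probes passed the filter only through LPS arrays. That filter favours a rise, so their calls, which the list counts include, are no independent support for one. Of 15 zinc and copper genes, 4 rose in WT and 1 in KO lines (26.7% and 6.67% called), with Slc31a2 at 0.90 and 1.01. Of 17 other pentose phosphate and NADPH genes, 3 rose and 1 fell in WT and 2 rose and 2 fell in KO lines (23.5% called in each). H6pd rose by 0.92 and 1.18, Rpe by 0.88 and 0.73, and Mthfd2 had changes of -0.58 and -0.58. By genotype, Ggct, which acts in glutathione turnover, was the 1 gene of these lists called: -0.76 in KO against WT with LPS (SE 0.13, limma adjusted p = 0.0408).

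**Figure D4:**
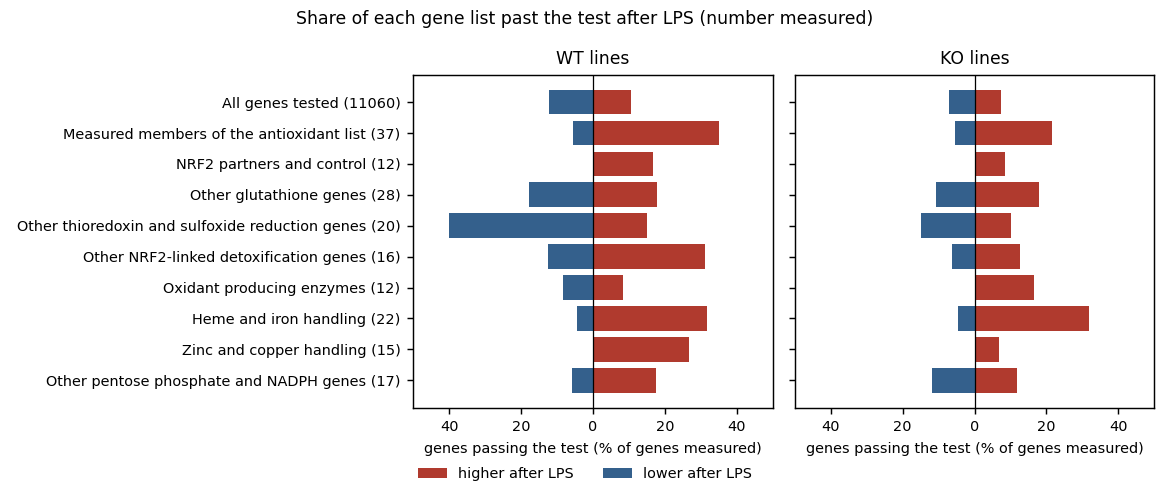
Share of the measured genes of each list that passed the adjusted threshold after LPS, in percent, higher to the right and lower to the left, for WT and KO lines, with the number of measured genes in parentheses. The antioxidant members had 13 of 37 higher in WT and 8 of 37 in KO lines, and the other thioredoxin and sulfoxide reduction genes had 8 of 20 lower in WT lines.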

How the data were processed

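Members and lists were chosen with earlier results of these data known. A pair of deposited tables cover the 12 arrays. The first holds deposited intensity values without normalisation and a deposited detection p-value per probe, per the file headers. The second holds the authors' processed intensity values. BeadStudio is named per the submitters' processing notes, without a version. Unused columns of sample values numbered 0.

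Signals were normalised with neqc (offset 16) in limma 3.58.1 under R 4.3.3. Of 45281 probes, 34885 had 1 gene symbol, 18 several and 10378 none. A probe was kept when its detection p was under 0.05 on 3 or more arrays, and the probe of highest mean stood for each of 11060 genes. A gene that no array of a group detected is given as at least N-fold, against its own signal or the lowest detected signal, whichever was higher.

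One limma fit (lmFit, eBayes, two-sided) of 4 group means gave 5 of the 6 comparisons, and another compared 6 line means. P-values were adjusted over all genes by Benjamini-Hochberg at 0.05. The labels pair the arrays of a line: deviations of its 2 arrays from their group means correlated at 0.137 to 0.52, and no line matched another better than itself. As alternatives the line was a fixed block or a random one (correlation 0.193), and background correction, scaling, offset, detection filter, probe choice, arrays fitted and single arrays or lines were varied. Members were all accounted for; from other lists, up to 4 called genes of largest change per comparison could be named. Promoter windows came from RefSeq, assembly GRCm38.p6.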

Additional observations from a re-analysis of the deposited data

How the results depend on the processing

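No called member changed sign under the alternatives run, and 16, 17, 20 and 16 of the 37 uncalled members did for the genotype comparisons without LPS, with LPS, for the difference of changes and for line means. In WT lines 7 of the 15 calls after LPS held under all 24 alternatives (Gclm, Gpx1, Hmox1, Mgst1, Sod2, Srxn1 and Txn1), and in KO lines 5 of 10 did (Gclm, Gpx1, Hmox1, Mgst1 and Sod2). With the line as a fixed replicate block 16 members rose and 3 fell in WT lines and 12 rose and 3 fell in KO lines; with a random block these counts were 14, 4, 14 and 2. Over all genes the same shares were 12.2%, 14.9%, 8.58% and 8.8% with the fixed and 13%, 16.6%, 9.47% and 9.85% with the random block. Members lower in WT, 2 in the report, were 4 on log2 quantile-normalised signals and on the authors' values, 5 under 75th percentile scaling and 1 with only the 6 arrays compared, where 14.1%, 14%, 15.1% and 7.5% of all genes were lower. Leaving out each array in turn gave 1 to 5 lower and 9 to 15 higher in WT, and 4 to 14 higher and 1 to 3 lower in KO lines. Over all genes those ranges were 7.25% to 15.2%, 7.04% to 12.1%, 4.33% to 9.57% and 2.97% to 10.2%. Without line WT13 counts were 6 higher and 1 lower in WT and 13 higher in KO lines; without KO4, 1 was lower in KO lines, where 3.69% of all genes were. Genotype calls among members were 0 except Sod3, 1 higher with LPS and 1 over line means without KO4 (0 to 1 over single lines left out). WT13 and KO4 were chosen for omission after seeing the data. A group of 2 after an omission shares the spread of the other groups. The cause of these shifts was not tested. The 3 arrays per group and the unmatched slides limit all LPS results.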
